A study of Rattus norvegicus with 6 samples.

Results

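The microRNAs (miRNAs) miR-126a, miR-221, miR-222 and miR-130a are known from work on endothelial cells and blood vessel growth. They were followed here in rat cardiac stem cells (CSCs) cultured with or without exosomes from mesenchymal stem cells (MSCs). They were chosen for these known roles, but with earlier results of these data already known. Their values were read from 5 of the 728 mature rat miRNA probe sets on the array: MIMAT0000831_st (miR-126a-5p), MIMAT0000832_st (miR-126a-3p), MIMAT0000890_st (miR-221-3p), MIMAT0000891_st (miR-222-3p) and MIMAT0000836_st (miR-130a-3p). All 5 had values on all 6 arrays, and no filter removed any of them from the main test. The CSCs were cultured from hearts of Sprague Dawley rats aged 4 weeks, in both groups. The exosome group (3 arrays) was grown for 3 days in medium with exosomes of passage 4 bone marrow MSCs, precipitated with Exo-Quick-TC, and the untreated group (3 arrays) was grown without them. Separate cultures behind the arrays are not stated in the labels, so every p-value covers the spread among the 6 arrays alone, and that spread may be technical. All values are log2 signals of Affymetrix miRNA arrays, where a step of 1 is a doubling of signal.

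A miRNA is a short RNA, cut from one arm of a hairpin precursor, that guides a repressor complex to messenger RNAs, mostly through its seed, bases 2 to 8 from the 5′ end. miR-126 is a defining miRNA of endothelial cells, processed from the Egfl7 gene. In mouse and zebrafish its 3p arm represses Spred1 and Pik3r2, brakes on signalling by vascular endothelial growth factor, and in human endothelial cells it also represses VCAM1, an adhesion molecule for leukocytes. miR-221 and miR-222 are made from one cluster and repress the receptor KIT in human endothelial cells and the cell cycle inhibitor CDKN1B in many human cell lines. miR-130a represses the antiangiogenic homeobox genes GAX (MEOX2) and HOXA5 in human endothelial cells. Unlike miR-126, the last 3 are made in many cell types, so their signal is not a mark of endothelial cells.

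The mature sequences, from RefSeq (build GRCr8), are shown because they decide which of these miRNAs can act on the same sites. Capitals mark the seed.
miR-126a-3p: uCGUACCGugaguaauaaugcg
miR-126a-5p: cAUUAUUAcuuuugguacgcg
miR-221-3p: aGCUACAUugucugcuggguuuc
miR-222-3p: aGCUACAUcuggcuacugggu
miR-130a-3p: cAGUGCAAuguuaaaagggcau
The 5 miRNAs carry 4 seeds. miR-221-3p and miR-222-3p share theirs, and are identical over the first 8 bases and, aligned at the 5′ end, at 11 of 21 positions. No other mature miRNA in the RefSeq table has the seed of either arm of miR-126a. Within the RefSeq table used here, miR-130a-3p shares its seed with miR-130b-3p and miR-301b-3p, both on chromosome 11. Their sequences are given for comparison.
miR-130b-3p: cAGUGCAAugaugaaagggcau
miR-301b-3p: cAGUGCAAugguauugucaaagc
miR-130a-3p and miR-130b-3p match at 20 of 22 positions, and miR-130a-3p and miR-301b-3p at 13 of 22. Probe sets for sequences this close can share signal, and values of the miR-130b-3p and miR-301b-3p probe sets were not analysed here because the files pair no probe set with these names.

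In the GRCr8 annotation both arms of miR-126a lie on chromosome 3, plus strand, within the bounds of Egfl7 (chr3:29802481-29814966), which encodes a protein secreted by endothelial cells. The 5p arm is at chr3:29813182-29813202 and the 3p arm at chr3:29813219-29813240. On the opposite strand the annotation has a second hairpin, whose mature miR-126b is complementary to miR-126a-5p over 17 bases in a row.
miR-126b: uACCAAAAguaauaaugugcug
miR-130a-3p lies elsewhere on chromosome 3 (chr3:90229240-90229261, minus strand), and its hairpin is 1833 bases from the nearest protein-coding gene, Ypel4. The hairpins of miR-222 (chrX:6022621-6022723) and miR-221 (chrX:6023182-6023290) lie on the X chromosome, plus strand, with 458 bases between them, and both overlap the long noncoding genes LOC120099382 and LOC120099384. They are shown with both mature arms in capitals, to place the measured 3p arms, the later capitals in each, within their precursors.
Mir222: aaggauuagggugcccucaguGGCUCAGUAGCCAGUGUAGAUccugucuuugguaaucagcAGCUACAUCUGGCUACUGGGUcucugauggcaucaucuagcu
Mir221: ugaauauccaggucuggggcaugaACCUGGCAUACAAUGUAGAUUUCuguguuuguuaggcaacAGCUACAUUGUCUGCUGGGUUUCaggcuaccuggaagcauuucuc

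Several features of the whole array bear on these 5 values. With limma, 0 of 728 mature miRNAs (0.0%) had a Benjamini-Hochberg adjusted p under 0.05, and 106 (14.6%) had an unadjusted p under 0.05, of which 88 (12.1% of the 728) were higher with exosomes. Groups did not overlap for 143 miRNAs (19.6%) in either direction and for 116 (15.9%) in the higher direction. The 171 miRNAs with a mean log2 signal of at least 5, called bright below, had a median difference of 0.39 log2, higher with exosomes. The median over all 728 was 0.08, and 470 of these had a mean below 2. Hybridization control probe sets, which read a control mix and no cell RNA, deviated by a median of -0.32 log2 on untreated array 1 and 0.36 on untreated array 3, against -0.10 to 0.06 on the other 4. The 22 spike-in control probe sets deviated less, by a median of -0.03 to 0.06 log2 over all the arrays. The part of these array differences in the results was not tested.

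miR-126a-3p had the clearest separation of the 5. Its log2 signal was 6.13, 6.28 and 6.21 on the 3 exosome arrays and 5.52, 5.73 and 5.48 on the 3 untreated arrays. Every exosome array lay above every untreated array, and the gap between the groups was wider than the spread within either. The mean was 6.21 ± 0.07 in the exosome group against 5.58 ± 0.14 in the untreated group (SD, n = 3 each). The difference was 0.63 ± 0.13 log2 (SE), or 1.55-fold, with a 95% interval of 1.24- to 1.92-fold. It did not pass correction over all miRNAs: limma gave an unadjusted p of 0.0027 and a Benjamini-Hochberg adjusted p of 0.228. An exact two-sided permutation test of the 6 arrays gave 0.1, the smallest p that 3 against 3 arrays allow. By unadjusted p it stood at place 7 of 728. It was 1 of the 58 bright miRNAs (33.9%) that were higher with an unadjusted p under 0.05, and 1 of the 64 (37.4%) that were higher with no overlap between groups.

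The size of the miR-126a-3p difference and the gap between its groups depended on how arrays were scaled, though the groups stayed apart on the 3 scales set side by side here. After quantile normalization, which gives all arrays the same distribution of signals, its signals were 5.95, 5.98 and 6.23 with exosomes and 5.69, 5.74 and 5.90 without. The groups still did not overlap, but the gap between them was narrower than the spread within each. The difference was then 0.28 log2 with an interval from -0.05 to 0.60 (limma adjusted p = 0.59). With each array centred on its bright miRNAs the difference was 0.25 log2 with an interval from -0.11 to 0.61 (limma adjusted p = 0.305), again with no overlap. Its SE was small, since the arrays of each group lay close together: of the 88 miRNAs with a mean between 5 and 8, only 1 had a smaller spread within groups. When its spread was drawn towards that of miRNAs of like brightness (limma with an intensity trend), the SE of the same difference was 0.29. The unadjusted limma p was then 0.056 (adjusted p = 0.385). The authors' deposited table of 22 differential miRNAs does not hold miR-126a-3p, although 18 of its 22 miRNAs had a larger unadjusted p in the same limma fit. The smallest fold among the 17 higher miRNAs in the authors' deposited table was 1.51. The authors' folds differ from those computed here: miR-18a-5p has 1.69 there and 1.81 here, and miR-503-5p has 3.37 and 3.62. Their 1.51 therefore cannot be set against the 1.55-fold of miR-126a-3p.

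**Figure D1:**
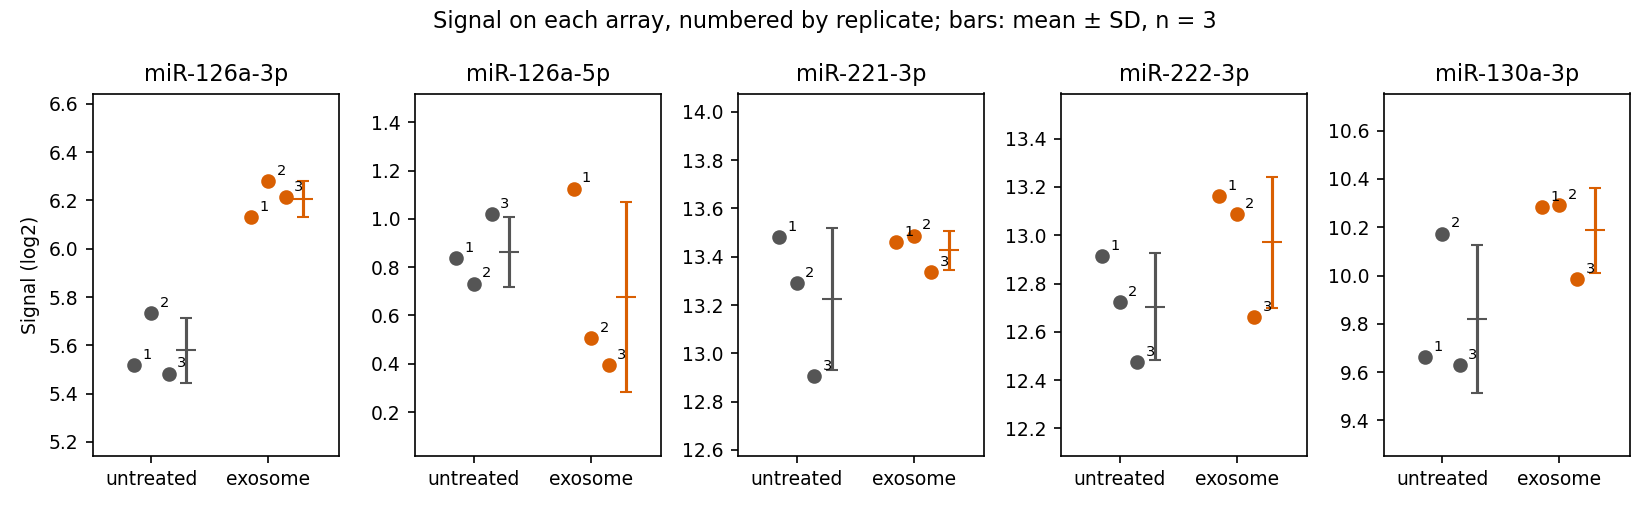
Log2 signal of each of the 5 miRNAs on every array (points, numbered by replicate), with the group mean ± SD (n = 3) beside them; each panel spans 1.5 log2. The groups are separate for miR-126a-3p and overlap for the other 4.

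The 5p arm of the same hairpin, miR-126a-5p, is known in mouse endothelial cells to repress Dlk1, an inhibitor of their proliferation. Its signal was 1.13, 0.51 and 0.39 on the exosome arrays and 0.84, 0.73 and 1.02 on the untreated arrays. Exosome array 1 was the highest of the 6 and the remaining exosome arrays the lowest, so the groups overlapped. The difference was -0.19 ± 0.22 log2 (SE) with a 95% interval from -0.73 to 0.35 (limma adjusted p = 0.772). Without exosome replicate 1 it was -0.41, with an unadjusted limma p of 0.047 and an adjusted p of 0.59. Without exosome replicate 3 it was -0.05. The probe set was dim. Of the 728 probe sets, 47.5% had a lower mean, and detection calls are given only for the 22 miRNAs of the authors' deposited table. There, signals up to 1.46 were called not detected, and all 6 signals of miR-126a-5p lay below that. Signals as low as 0.82 were called detected for other probe sets, and 3 of its 6 signals lay below that. Whether its values lie above background is therefore not known here.

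The 2 arms were also compared within each array, which removes any shift common to both but not a shift that varies with brightness. The 3p signal exceeded the 5p signal by 5.004, 5.77 and 5.82 log2 on the exosome arrays and by 4.68, 5.003 and 4.46 on the untreated arrays. These levels come from different probes and are not a ratio of molecules, so only their change between groups is read. The change was 0.82 log2, with means of 5.53 ± 0.46 against 4.72 ± 0.27 (SD, n = 3), and the groups did not overlap, by a margin of 0.00125 log2. The exact two-sided permutation p was 0.1, the smallest possible. After quantile normalization the change was 0.48 log2, the groups overlapped and the exact permutation p was 0.3. With signals under 4 set to 4, which makes miR-126a-5p constant, the change was 0.63, that of the 3p arm alone. The 2 arms differ widely in brightness. Among miRNAs with a mean below 2, as miR-126a-5p has, the median difference between groups was 0.04 log2. Among those with a mean from 5 to 8, as miR-126a-3p has, it was 0.57. The share of this brightness pattern in the change between the arms was not tested.

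miR-221-3p and miR-222-3p had bright signals on every array. For miR-221-3p the signals were 13.46, 13.49 and 13.34 with exosomes and 13.48, 13.29 and 12.90 without. Untreated array 1 was as high as the exosome arrays, and untreated array 3 stood apart below. The difference was 0.20 ± 0.18 log2 (SE), or 1.15-fold, with an interval of 0.853- to 1.55-fold (limma adjusted p = 0.68). Without untreated replicate 3 it was 0.04, and without untreated replicate 1 it was 0.33. For miR-222-3p the signals were 13.16, 13.09 and 12.66 with exosomes and 12.92, 12.72 and 12.47 without. Exosome array 3 lay between the untreated arrays, so these groups overlapped too. The difference was 0.27 ± 0.19 log2 (SE), or 1.20-fold, with an interval of 0.866- to 1.67-fold (limma adjusted p = 0.618). It was 0.17 without exosome replicate 1, 0.42 without exosome replicate 3 and 0.15 without untreated replicate 3. An exact permutation test gave 0.3 for each. The intervals leave room for a difference of more than 1.5-fold upwards in both, so the data do not show that these miRNAs were unaffected.

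The paired genes of this cluster could be set against each other within arrays. The miR-221-3p signal minus the miR-222-3p signal was 0.30, 0.40 and 0.67 on the exosome arrays and 0.56, 0.57 and 0.43 on the untreated arrays. The untreated values lay inside the range of the exosome values. The change was -0.06 log2 (exact two-sided permutation p = 0.6), and without exosome replicate 1 it was 0.02. Across the 6 arrays the 2 miRNAs had a Pearson correlation of 0.85, the highest among the 10 pairs of the 5 miRNAs, given as a description of arrays that share their scaling.

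For miR-130a-3p the signals were 10.28, 10.29 and 9.98 on the exosome arrays and 9.66, 10.17 and 9.63 on the untreated arrays. The groups overlapped through 1 pair: untreated array 2 lay above exosome array 3. The means were 10.19 ± 0.18 (SD, n = 3) and 9.82 ± 0.31 (SD, n = 3). The difference was 0.37 ± 0.20 log2 (SE), or 1.29-fold, with an interval of 0.926- to 1.79-fold (limma adjusted p = 0.448, exact permutation p = 0.2). Without untreated replicate 2 it was 0.54, with an unadjusted p of 0.023 and an adjusted p of 0.385. After quantile normalization it was 0.06, and centred on bright miRNAs it was -0.01, so on those scales the group means were nearly equal.

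On the deposited scale 4 of the 5 miRNAs were higher with exosomes, against 1 of 5 with arrays centred on bright miRNAs, and the groups did not overlap for 1. Over all 728 on the deposited scale 469 were higher, and the share without overlap (19.6%) is about that of 1 in 5. The median difference of the 5 was 0.27 log2, against 0.08 over all 728. For the 4 bright ones it was 0.32, against 0.39 over the 171 bright miRNAs, of which 144 were higher. Differences between the groups varied with brightness on these arrays, and 3 of the 4 bright ones lay near the middle of their own brightness band. In the band from 5 to 8 the median was 0.57 and miR-126a-3p had 0.63, with 36 of 88 above it. In the band from 8 to 11 the median was 0.40 and miR-130a-3p had 0.37, with 26 of 46 above it. In the band from 11 to 13 the median was 0.22 and miR-222-3p had 0.27, with 10 of 24 above it. miR-221-3p was the exception among the bright ones. In the band of the 13 brightest miRNAs, whose median was 0.04, its 0.20 was the largest difference. Its spread within groups was also the largest there. The dim miR-126a-5p lay low in its band: below 2 the median was 0.04 and miR-126a-5p had -0.19, with 401 of 470 above it. Its spread within groups was wider than that of 354 of the 470. The share of the brightness pattern in these differences was not tested.

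**Figure D2:**
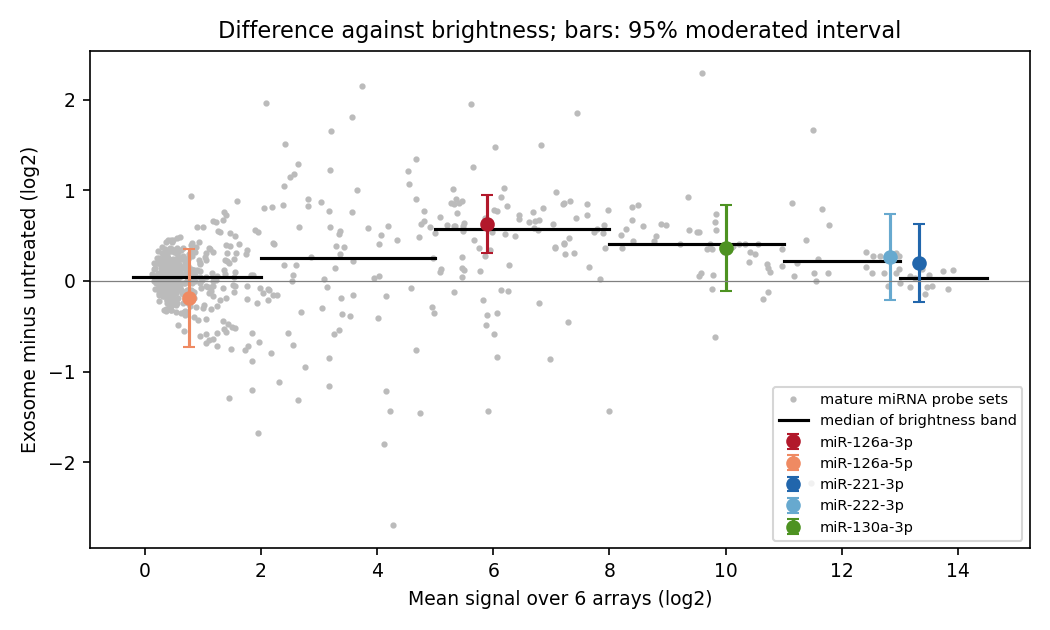
Difference between groups (exosome minus untreated, log2) against the mean signal over 6 arrays (log2) for all 728 mature miRNA probe sets (grey), with the 5 miRNAs in colour, their 95% moderated intervals, and the median of each brightness band (black lines). miR-126a-3p, miR-130a-3p and miR-222-3p sit close to the line of their band, and only the interval of miR-126a-3p, from 0.31 to 0.94, lies above 0.

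The 4 bright miRNAs had some extreme arrays in common. Untreated array 3 was the lowest of the 6 for 4 of 4, as it was for 75 of the 171 bright miRNAs (43.9%). Exosome array 2 was the highest for 3 of 4, as for 76 of the 171 (44.4%). Exosome array 3 was the lowest exosome array for miR-221-3p, miR-222-3p and miR-130a-3p, and for 116 of the 171. The other positions differed: untreated array 1 lay near the exosome arrays for miR-221-3p but among the 2 lowest arrays for miR-126a-3p and miR-130a-3p. The median deviation of bright miRNAs from their own means was 0.25, 0.33 and 0.02 log2 on exosome arrays 1, 2 and 3 and -0.25, -0.05 and -0.24 on untreated arrays 1, 2 and 3. With that deviation removed from each array, miR-126a-3p differed by 0.25, miR-221-3p by -0.17, miR-222-3p by -0.11 and miR-130a-3p by -0.01 log2. The dim miR-126a-5p then differed by -0.56 log2, with an interval from -1.13 to -0.0014 and an unadjusted p of 0.0496 (limma adjusted p = 0.221), and its groups overlapped. This centring moves the median of all 728 miRNAs from 0.08 to -0.29. On that scale 163 of the 728 had an unadjusted limma p under 0.05, and 146 of these were lower with exosomes. The direction given for miR-221-3p, miR-222-3p and miR-130a-3p therefore holds on the deposited and quantile scales and turns when bright miRNAs are taken as the reference.

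**Figure D3:**
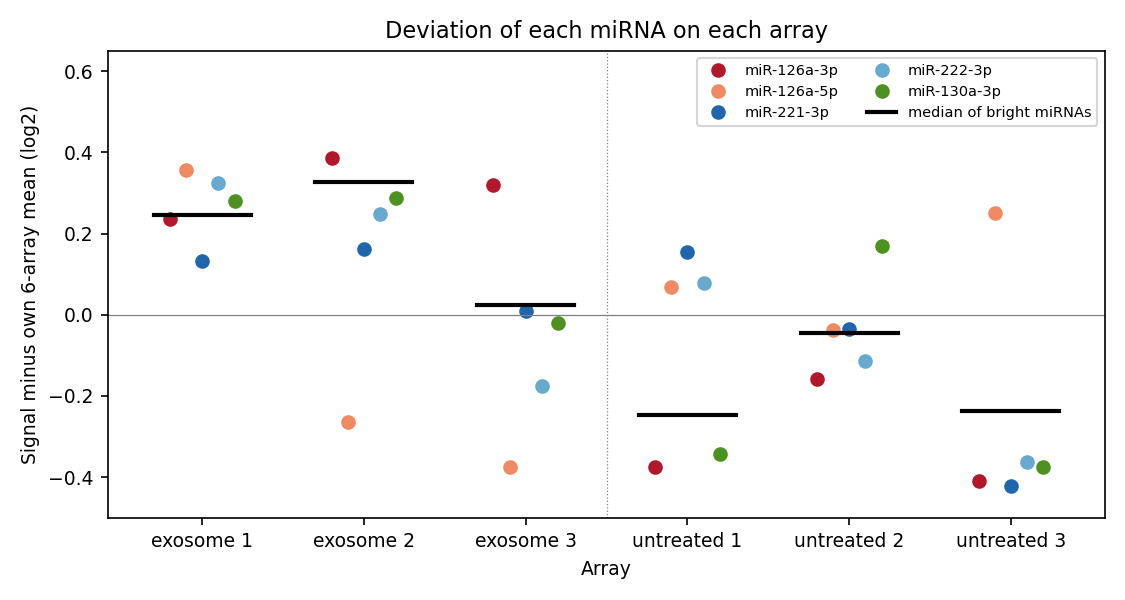
Signal of each of the 5 miRNAs minus its own mean over the 6 arrays (log2), by array, with the median of the 171 bright miRNAs as a black bar. miR-126a-3p stays high on exosome array 3, where the bright median is 0.02, while miR-221-3p, miR-222-3p and miR-130a-3p are near or below 0 there.

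The total RNA came from bulk cultures. A change in level per cell and a change in the share of cells of a type cannot be told apart. Nor can RNA carried in by exosomes and RNA made by the CSCs. The miR-126a-3p signal lay between 5.48 and 6.28 on all 6 arrays, with a higher mean than 80.9% of the 728 probe sets, and its detection call is not given. Markers of cardiomyocytes, blood cells, smooth muscle, mesenchymal and epithelial cells (25 names in all) could not be paired with probe sets by name, so which cell types the cultures held was not tested.

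**Figure D4:**
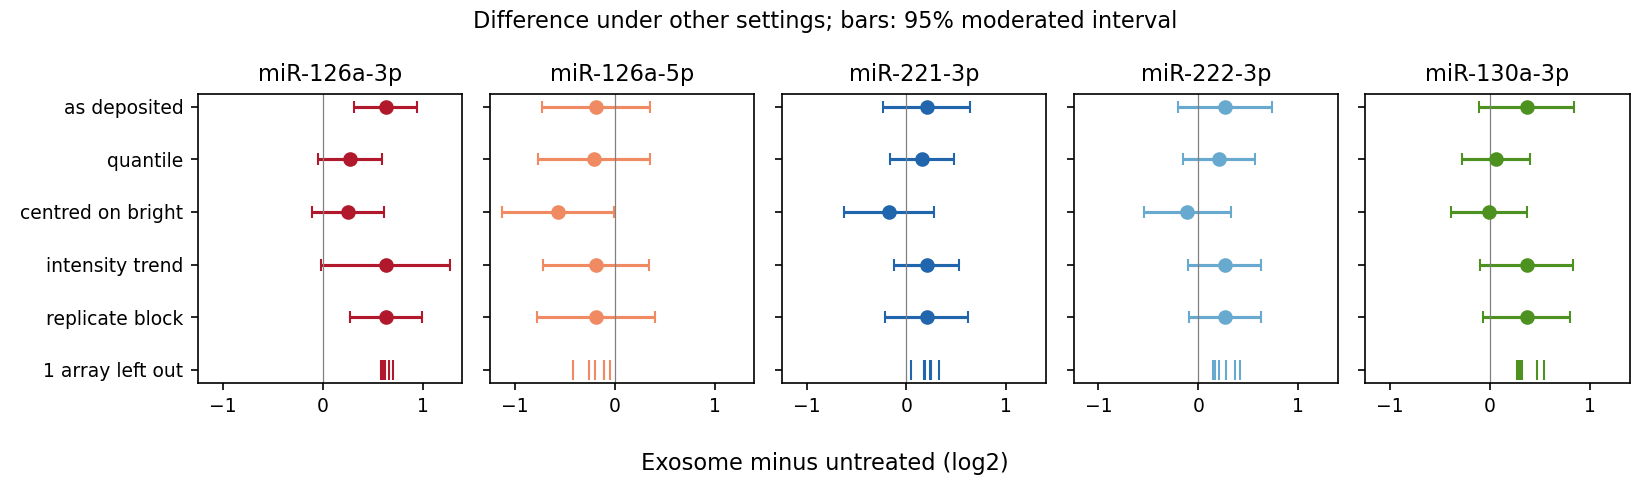
Difference between groups (exosome minus untreated, log2) of each miRNA with its 95% moderated interval on the deposited scale, after quantile normalization, centred on bright miRNAs, with an intensity trend and with a replicate block; ticks in the last row show the 6 fits that leave out 1 array. With all 6 arrays on the deposited scale, every interval of the other 4 miRNAs includes 0. That of miR-126a-3p reaches 0 after quantile normalization, bright centring and the intensity trend. Intervals of the fits that leave out 1 array are not drawn.

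The bright miRNAs whose signals followed each of the 5 most closely over the 6 arrays were sought by Pearson correlation, taking the 3 highest for each. Of these 15, only 1 has a name in the files: miR-532-5p, of an X-linked cluster, which followed miR-126a-3p at r = 0.98 and differed by 0.82 log2 between groups. The unnamed probe sets MIMAT0000806_st, with miR-221-3p at r = 0.99, and MIMAT0003117_st, with miR-126a-3p at r = 0.98, were the closest of all. For miR-126a-5p the 3 highest were 0.51 to 0.74. With 6 arrays and 171 candidates, no link is read from these values.

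Among 35 other miRNAs studied in endothelial cells and angiogenesis, the files name 2. Both are in the authors' deposited table, which was chosen on these arrays, so they are not independent evidence. miR-18a-5p, of the proliferation-linked miR-17-92 cluster, had signals of 7.51, 7.70 and 7.73 with exosomes and 7.08, 6.91 and 6.38 without. miR-503-5p, which restrains proliferation and migration of endothelial cells in mouse and human studies, had 8.33, 8.44 and 8.32 with exosomes and 7.29, 6.54 and 5.69 without. The groups of both were separate, and untreated array 3 was again the lowest. Their differences were 0.86 ± 0.21 and 1.85 ± 0.39 log2 (SE), and 0 of the 2 passed the test (limma adjusted p = 0.248 and 0.228). After quantile normalization the differences were 0.23 and 1.22 log2.

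The authors' deposited target table covers their 22 listed miRNAs and none of these 5, so it holds no predicted targets of miR-126a, miR-221, miR-222 or miR-130a. Of 11 genes studied elsewhere as targets of the 5, it holds 4, each predicted for 1 miRNA that is higher in the authors' deposited table. Cdkn1b, the cell cycle inhibitor repressed by miR-221 and miR-222, is predicted for let-7i-3p, and Bbc3, a pro-apoptotic gene, for miR-106b-3p. Timp3, an inhibitor of matrix proteases, is predicted for miR-500-5p, and Vcam1, repressed by miR-126, for miR-201-5p. Spred1, Pik3r2, Kit, Cdkn1c, Meox2, Hoxa5 and Foxo3 are not among the predictions. These are sequence predictions, without measured messenger RNA or protein.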

How the data were processed

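Biotin labelling of 1 ug of total RNA with the FlashTag kit came before hybridization to Affymetrix arrays, per the labels' protocols. The deposited log2 signals are labelled RMA with detection above background, per the file headers, whereas MAS5 and Expression Console appear in the submitters' processing notes, and which of them made the values is not settled. If RMA was used, it draws arrays towards a common distribution, which would shrink a real change shared by most miRNAs. In the authors' deposited table the log2 signals equal the value table (largest difference 0), and its group mean intensity values, fold ratios and p-values are the authors' own; the sources used here do not give the test behind them.

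Groups came from sample titles, and 0 value columns were left unmapped. The names of the 5 probe sets were given with the choice of miRNAs, not by the files. The 728 mature probe sets were tested with limma 3.58.1 (lmFit, eBayes) in R 4.3.3, exosome minus untreated, on the deposited scale without further normalization, with Benjamini-Hochberg adjustment over all 728 and a threshold of 0.05. Hairpin (490) and control probe sets were left out. Intervals are limma's moderated 95% intervals. Single values were tested by exact permutation of the 6 arrays. The number of arrays limits the precision. The limma script was tested on simulated data. The text names the 5 miRNAs, miRNAs with the same seed, the 3 most correlated miRNAs for each (bright ones, at most 2 unnamed), the named members of the angiogenesis list and the looked-up target genes (1 more planned gene is not reported here); opposite arms of miR-221, miR-222 and miR-130a and the hairpin probe sets could not be matched by name. Sequences and gene positions come from RefSeq, GRCr8. Python 3.11.15 with numpy 2.4.6, pandas 2.3.3 and matplotlib 3.10.9 gave the other values and the figures.

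The miRNAs and lists were chosen with earlier results of these data known. Alternatives were quantile normalization, centring on medians or on bright miRNAs, filters at a mean of 2 or 5, a floor of 4, an intensity trend, robust fitting, hairpins included, each array left out in turn and a replicate block. Counts at an unadjusted p under 0.05 and the permutation tests of single miRNAs were added after seeing the data.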

Additional observations from a re-analysis of the deposited data

How the results depend on the processing

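In 77 fits of the 5 miRNAs under these alternatives, the direction turned in 3, all under centring on bright miRNAs (miR-221-3p -0.17, miR-222-3p -0.11, miR-130a-3p -0.0106 log2), and none passed the adjusted threshold; the smallest adjusted p was 0.0981, for miR-126a-3p among bright miRNAs alone. miR-126a-5p could not be tested with a floor of 4 or with filters at a mean of 2 or 5, which drop it. Leaving out 1 array gave 0.58 to 0.71 log2 for miR-126a-3p, -0.41 to -0.05 for miR-126a-5p, 0.04 to 0.33 for miR-221-3p, 0.15 to 0.42 for miR-222-3p and 0.27 to 0.54 for miR-130a-3p. The change in the miR-221-3p minus miR-222-3p signal turned to 0.0165 without exosome replicate 1, and the change in the miR-126a arms was 0.48 after quantile normalization. Adjusted calls over all miRNAs ranged from 0 to 23 with 1 array left out: 23 without exosome replicate 3, 1 without untreated replicate 1, and none of them one of the 5. Unadjusted calls (106, of which 18 were lower with exosomes) ranged from 38 to 145 with 1 array left out and were 68 after quantile normalization. Centring on bright miRNAs gave 163, of which 146 were lower with exosomes. Means of at least 2 and 5 gave 61 and 58, and the floor gave 70. These last 3 settings test fewer probe sets, and the cause of the other changes was not tested. Groups share replicate numbers, and same-numbered arrays correlated in their deviations at 0.04, 0.32 and 0.29 for numbers 1, 2 and 3; numbers 2 and 3 were each exosome array's best match, but exosome array 1 matched untreated array 2 better (0.24), so the numbers were not taken as pairs; a replicate block gave 111 unadjusted calls, 0 adjusted ones and an adjusted p of 0.195 for miR-126a-3p. The sign-flip form of the block for the arm comparison cannot go below 0.25.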
